A study of Mus musculus with 25 samples.

Results

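Lcn2 encodes lipocalin 2, a secreted protein that binds bacterial siderophores and so withholds iron. The gene was examined together with 9 other genes of the hepatic acute phase, Orm1, Orm2, Hp, Cp, Lbp, Saa1, Saa2, Saa3 and Il1rn. These 10 genes were taken by their symbols in the authors' annotation of the array, out of 20005 gene symbols, and 18 of its 45281 probes carried one of them. A probe was tested when its detection p-value was under 0.05 on at least 4 arrays; 15 of the 18 probes passed and all 10 genes kept at least 1 probe, against 20349 probes and 11594 genes over the whole array. The 3 probes that did not pass were dim probes of Il1rn. Unless another probe is named, a gene is given by its probe of highest mean signal.

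The study measured total RNA from livers of C57BL/6J x 129Sv mice on 25 Illumina bead arrays. Mice had been injected with mutant PIK3CA, the catalytic subunit of phosphoinositide 3-kinase, or with an empty vector. With PIK3CA E545K, 5 liver tumours were labelled with an age of 5 months and 5 preneoplastic livers with 3 months; with PIK3CA H1047R, 4 preneoplastic livers were labelled with 3 months, 1 preneoplastic liver with 6 months and 1 tumour with 12 months. Normal livers of empty-vector mice made 5 arrays at 6 months and 4 at 3 months. No 5-month control was analysed here, so the tumours were set against controls of both other ages. The labels name neither the promoter of the injected constructs nor the way of delivery, and do not say whether each array is a separate animal. The p-values therefore cover the spread of these arrays, which may in part be technical. In whole tissue, more cells of a type and more RNA per cell cannot be told apart.

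The acute phase is the liver's secretory response to injury and infection, in which interleukin 6 acting through STAT3, and interleukin 1 and tumour necrosis factor acting through NF-kB and C/EBP factors, raise the transcription of plasma protein genes in hepatocytes. Serum amyloid A, alpha-1-acid glycoprotein (Orm genes) and haptoglobin are among its main products in mice. Lcn2 and Saa3 are also made by other cells, including macrophages, and Lcn2 is stored in neutrophil granules.

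The 250 bases before the transcription start are shown for Lcn2 and the serum amyloid A genes because these genes parted in the tumours, as described below. The sequences come from the RefSeq promoter table of build GRCm38.p6 and run 5′ to 3′ on the gene's strand, and capitals mark a match to the C/EBP motif.
Lcn2, chr2:32387740-32387989, minus strand: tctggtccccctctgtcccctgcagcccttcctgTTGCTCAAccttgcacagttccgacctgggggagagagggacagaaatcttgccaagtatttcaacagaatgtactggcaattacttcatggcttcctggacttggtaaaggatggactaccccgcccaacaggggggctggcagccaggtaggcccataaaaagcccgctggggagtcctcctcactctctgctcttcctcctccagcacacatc
Saa1, chr7:46742981-46743230, minus strand: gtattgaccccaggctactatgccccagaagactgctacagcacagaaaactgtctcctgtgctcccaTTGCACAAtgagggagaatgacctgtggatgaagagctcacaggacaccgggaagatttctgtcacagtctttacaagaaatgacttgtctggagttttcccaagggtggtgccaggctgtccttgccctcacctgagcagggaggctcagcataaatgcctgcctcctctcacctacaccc
Saa2, chr7:46751583-46751832, plus strand: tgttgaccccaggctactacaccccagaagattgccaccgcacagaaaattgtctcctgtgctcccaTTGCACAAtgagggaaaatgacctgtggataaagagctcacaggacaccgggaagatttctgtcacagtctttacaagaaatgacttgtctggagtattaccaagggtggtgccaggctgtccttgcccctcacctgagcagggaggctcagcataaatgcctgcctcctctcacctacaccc
Saa3, chr7:46715677-46715926, minus strand: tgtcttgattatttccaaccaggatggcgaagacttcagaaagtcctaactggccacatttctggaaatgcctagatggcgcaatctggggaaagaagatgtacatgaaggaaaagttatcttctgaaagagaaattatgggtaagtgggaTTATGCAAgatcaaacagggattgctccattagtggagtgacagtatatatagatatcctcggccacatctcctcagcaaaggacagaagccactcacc
Saa1 and Saa2 lie in 1 cluster on chromosome 7 with Saa4 and Saa3, and their windows differ by 13 single-base edits over 250 bases. Their transcripts are close relatives, so signal of one may reach the other's probes. All 4 windows held 1 match to the C/EBP motif, written TTGCNNAA and searched on both strands, ending 209, 175, 176 and 92 bases before the start of Lcn2, Saa1, Saa2 and Saa3. So did that of Orm2 and 1 of the 2 windows of Cp, and those of Il1rn did not. Among all 32851 windows of this length in the table, 9.56% held it. No match in the 10 windows found for 7 of the genes was seen for the STAT3 motif TTCNNNGAA, present in 7.02% of all windows, or for the NF-kB consensus, present in 3.9%. None of the motifs overlapped another in these windows.

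Lcn2 was near the top of the scale in every tumour and low to moderate elsewhere. Its normalized log2 signal was 14.66, 14.68, 14.83, 14.59 and 14.81 in the 5 E545K tumours, against 5.97, 6.39, 7.22, 6.12 and 8.12 in the 6-month controls and 10.53, 8.72, 5.17 and 7.03 in the 3-month controls. The lowest tumour, at 14.59, thus lay above the highest control of either age. That control was a 3-month array, and the 3-month controls themselves spread widely, from 5.17 to 10.53. The difference was 7.95 (SE 0.35, limma adjusted p = 2.07e-07) against the 6-month controls, a 248-fold difference, and 6.85 (SE 0.81, adjusted p = 1.58e-04) against the 3-month controls, or 8.62 without control replicates 1 and 2. In tumours, Lcn2 was brighter than at least 99.95% of all probes. After quantile normalization every array ended at 14.95, so the scale leaves little room above these values and the fold is rough.

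In 3-month livers Lcn2 did not pass the test with either mutation. Signals were 6.10, 6.65, 5.88, 6.19 and 6.46 in the 3-month E545K livers and 7.58, 6.77, 6.26 and 5.59 in the 3-month H1047R livers. Both groups overlapped the controls of either age. The 12-month H1047R tumour had a signal of 14.83 and the 6-month H1047R liver 6.69. The E545K tumours exceeded the 3-month E545K livers by 8.46 (SE 0.15, adjusted p = 4.56e-11). Ordered by mean, the groups fell into the tumours of both mutations and then all the others, and below the tumours each neighbouring pair of groups overlapped.

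**Figure D1:**
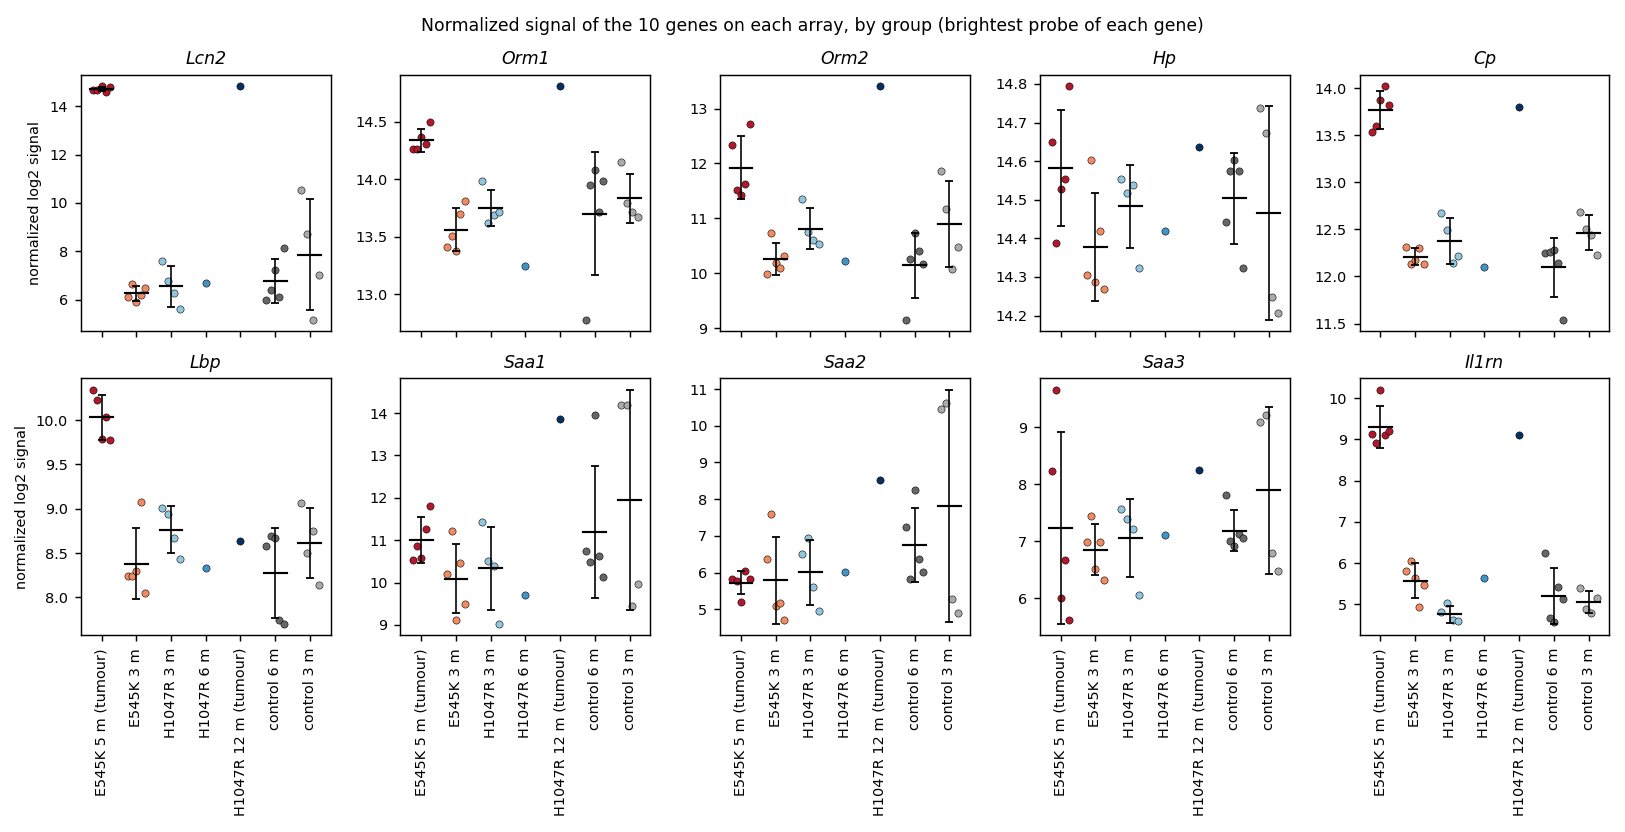
Normalized log2 signal of the 10 genes (brightest probe each, own vertical axis per panel) on every array, by group, with points for arrays, bars for the group mean and whiskers for the SD where a group has 2 or more arrays. Lcn2, Cp and Il1rn in tumours of both mutations stand clear of all other arrays, Lbp is raised in E545K tumours alone among the groups shown, and the highest Saa1 and Saa2 signals lie in 2 of the 3-month controls.

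Over the 10 genes, 6 rose in E545K tumours against 3-month controls and 0 fell, where 19.2% of all probes tested rose and 20.6% fell. Every tumour lay above every control for 5 of the 10, against 13.7% of all probes. Against 6-month controls, 5 rose and 0 fell (8.42% and 7.57% of all probes), and 6 did not overlap, against 6.86% of all probes. With the 3-month E545K livers as the comparison, 6 rose and 0 fell (18.3% and 20.6% of all probes), and 6 did not overlap, against 10.1% of all probes. The median difference over the 10 genes was 0.77 against 3-month controls, 1.16 against 6-month controls and 1.24 against 3-month E545K livers, where the median over all genes tested was -0.03, -0.02 and -0.03. These comparisons share the tumour arrays. Lcn2, Orm2, Cp, Lbp and Il1rn rose in all 3, and Orm1 in 2.

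**Figure D2:**
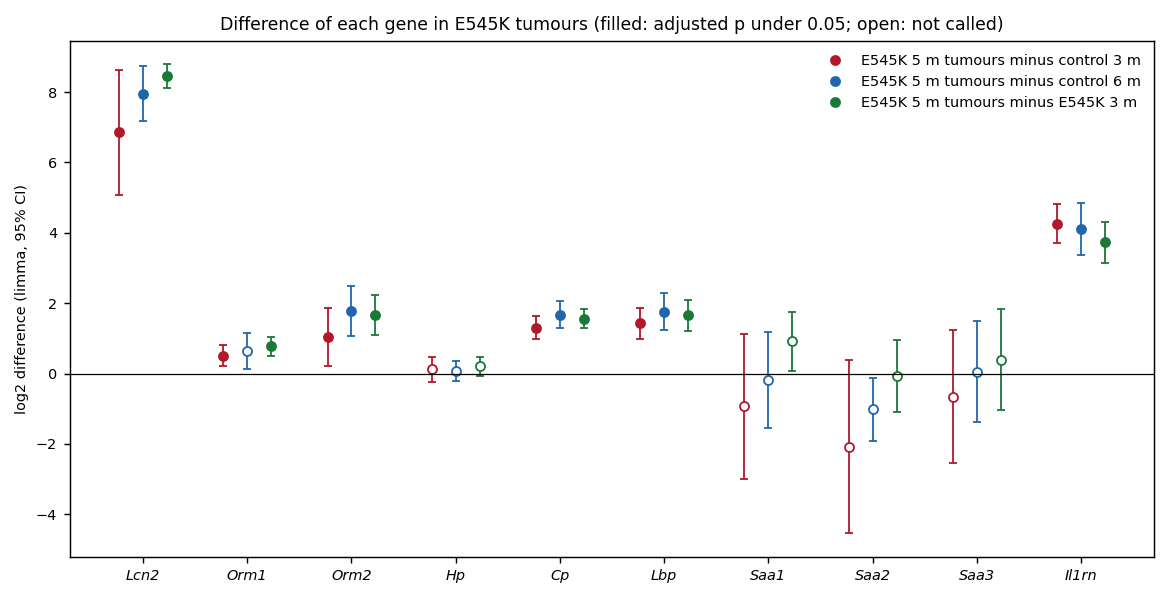
Log2 difference of each gene in E545K tumours with its 95% confidence interval (limma), against 3-month controls, 6-month controls and 3-month E545K livers; filled points passed an adjusted p of 0.05. Lcn2 and Il1rn differ most, the brightest Hp probe lies near 0, and the intervals of Saa1 and Saa3 span 0 against both control ages.

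Among the plasma transport proteins, Cp, the copper-carrying ferroxidase ceruloplasmin, rose in every tumour. Its signal was 13.53, 13.60, 13.87, 14.02 and 13.82 in E545K tumours, against 12.25, 12.26, 12.28, 12.14 and 11.54 in 6-month controls and 12.69, 12.51, 12.44 and 12.23 in 3-month controls. Tumours and controls did not overlap. The difference was 1.67 (SE 0.18, adjusted p = 1.10e-04) against 6-month controls and 1.30 (SE 0.15, adjusted p = 1.36e-04) against 3-month controls. A dimmer Cp probe rose by 2.71 (SE 0.30, adjusted p = 1.50e-04) against 6-month controls, or by 1.63 without background correction, beside 1.67 for the brightest. The dimmest one was detected on 4 of 5 tumours and on no control array; as it was not above background there, tumours were at least 1.19-fold higher than 3-month controls (adjusted p = 0.0377). Such bounds set the tumour mean against, on each control array, the higher of its lowest detected signal and the probe's own. Against 6-month controls it was not called (adjusted p = 0.0792). It was no longer called against 3-month controls when any one array other than tumour replicate 3 was left out (adjusted p 0.0576 to 0.0856).

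Orm1 and Orm2 encode alpha-1-acid glycoproteins, which carry drugs and lipids in plasma; they are neighbours on chromosome 4 with Orm3 between them. Orm2 was 12.34, 11.52, 11.43, 11.62 and 12.71 in E545K tumours, against 9.15, 10.27, 10.73, 10.41 and 10.16 in 6-month controls and 11.86, 11.17, 10.07 and 10.48 in 3-month controls. Tumours cleared all 6-month controls, while the highest 3-month control lay among them. Against 6-month controls Orm2 rose by 1.78 (SE 0.33, adjusted p = 0.00393). Against 3-month controls the difference of 1.03 (SE 0.37, adjusted p = 0.0476) passed narrowly, and the call was lost on leaving out any one of 7 arrays, tumour replicates 1, 2, 4 and 5 or control replicates 2, 3 and 4 (0.76 to 1.13, adjusted p 0.0519 to 0.132). Without 3-month control replicates 1 and 2 together it was 1.65 (adjusted p = 0.0172). Orm1 was 14.26, 14.27, 14.37, 14.31 and 14.50 in the tumours, against 12.78, 13.95, 14.08, 13.71 and 13.98 in 6-month controls and 14.15, 13.80, 13.71 and 13.67 in 3-month controls. No control reached a tumour. The Orm1 difference of 0.51 (SE 0.14, adjusted p = 0.0137) passed against 3-month controls, and the difference of 0.64 (SE 0.23, adjusted p = 0.0827) against 6-month controls did not.

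Lbp, the plasma protein that hands bacterial lipopolysaccharide to CD14, rose in E545K tumours. It measured 10.34, 10.23, 9.79, 10.04 and 9.78 there, against 8.58, 8.70, 8.67, 7.75 and 7.70 in 6-month controls and 9.07, 8.50, 8.75 and 8.14 in 3-month controls. The groups did not overlap. The difference was 1.76 (SE 0.24, adjusted p = 6.02e-04) against 6-month controls and 1.42 (SE 0.20, adjusted p = 4.56e-04) against 3-month controls. The H1047R tumour, at 8.64, lay below all 5 E545K tumours and within the range of both control ages.

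Hp encodes haptoglobin, which binds free haemoglobin, and its 3 probes did not agree. The brightest probe gave 14.65, 14.39, 14.53, 14.55 and 14.79 in E545K tumours, against 14.32 to 14.60 in 6-month controls and 14.21 to 14.74 in 3-month controls. Its groups overlapped and its difference was 0.08 (95% interval -0.20 to 0.36, adjusted p = 0.723) against 6-month controls. Both dimmer probes rose. Probe 2 read 13.48, 14.77, 14.90, 14.86 and 14.75 in tumours, against 10.68, 12.47, 13.21, 11.26 and 12.22 in 6-month controls and 12.43, 11.68, 11.48 and 10.24 in 3-month controls, with no overlap. Its difference was 2.59 (SE 0.45, adjusted p = 0.00297) against 6-month controls and 3.10 (SE 0.41, adjusted p = 3.22e-04) against 3-month controls, and probe 3 differed by 2.51 and 3.14. All 3 are annotated to the same transcript. The brightest one lay within 0.75 of the top of the scale on every array, at or above 99.87% of all probes. Whether that ceiling accounts for the gap between probes was not tested.

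**Figure D3:**
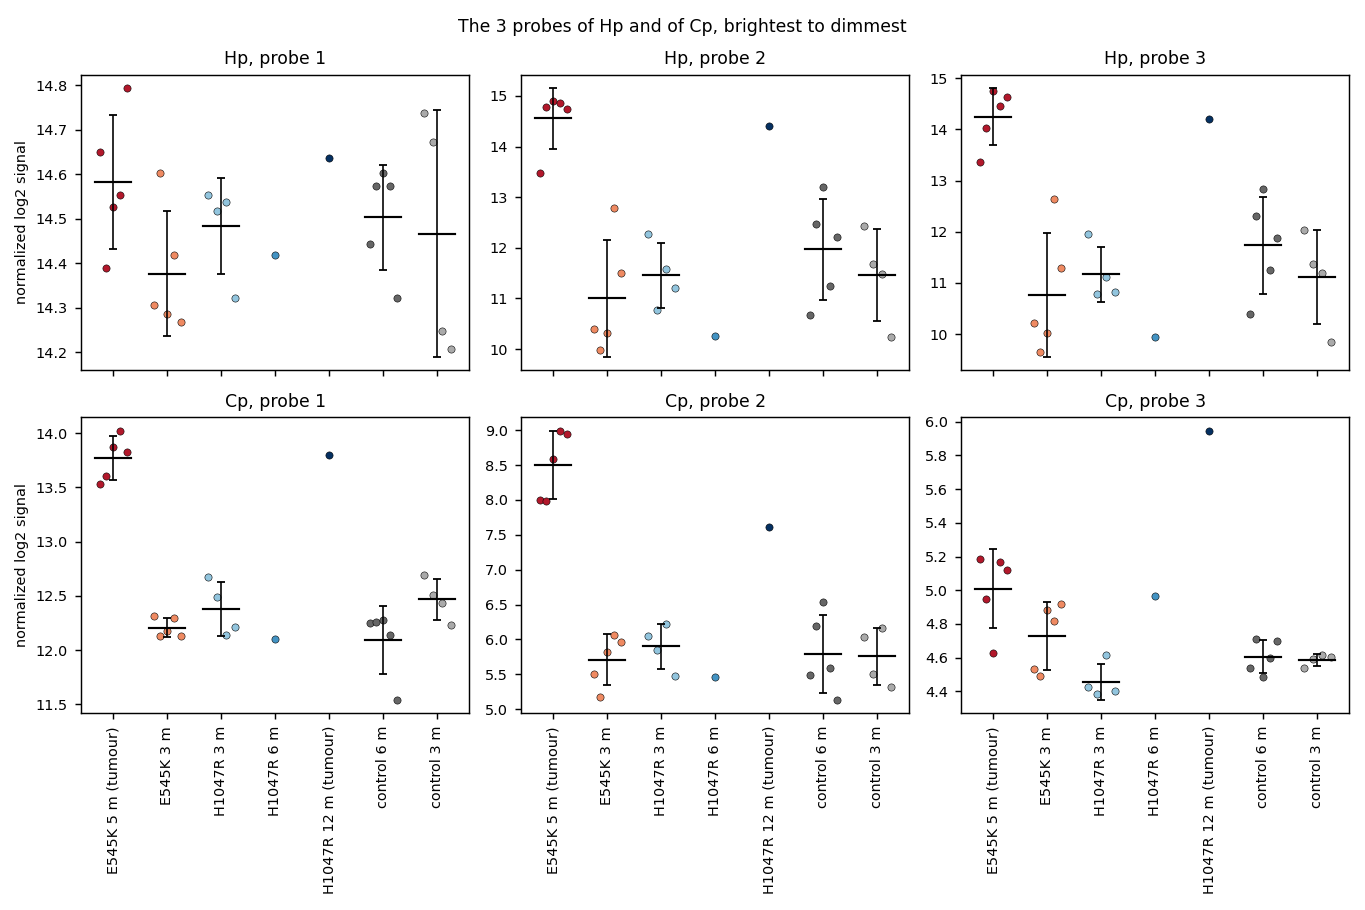
Normalized log2 signal of the 3 Hp probes (top) and the 3 Cp probes (bottom), brightest to dimmest, on every array by group, with group mean and SD. Hp probe 1 stays between 14.21 and 14.79 in all groups, whereas probes 2 and 3 separate the tumours of both mutations from the controls; Cp probes 1 and 2 separate them too.

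Il1rn, the secreted antagonist of the interleukin 1 receptor, was the most raised of the 10 genes after Lcn2. Tumours gave 9.13, 8.91, 10.20, 9.10 and 9.21, against 6.24, 4.66, 4.58, 5.41 and 5.13 in 6-month controls and 5.39, 4.88, 4.80 and 5.14 in 3-month controls. The lowest tumour exceeded the highest control by more than 2 log2 units. The difference was 4.11 (SE 0.33, adjusted p = 1.65e-05) against 6-month controls and 4.26 (SE 0.25, adjusted p = 2.13e-06) against 3-month controls. Its control signals lay close to background, with detection on 3 of 5 arrays at 6 months, and without background correction the same differences were 2.51 and 2.57 (adjusted p 9.92e-05 and 9.20e-05). Of 11 tested markers of macrophages and Kupffer cells, 5 rose and 0 fell in these tumours against 6-month controls, where 8.42% and 7.57% of all probes did. Lyz2 (2.55), Cd68 (1.72) and C1qb (1.93) were among the 5, while the Kupffer cell markers Clec4f (-0.77), Timd4 (-0.39) and Marco (0.19) were not called. The mean of the list was 7.27 to 9.25 in tumours, against 6.26 to 7.87 in 6-month controls, with 10 to 11 markers detected per tumour. In the 12-month H1047R tumour that mean was 7.23. Of 4 tested biliary and progenitor markers, 2 rose and 0 fell in E545K tumours against 6-month controls. Against 3-month controls 2 rose and 1 fell, where 19.2% and 20.6% of all probes did. Their mean was 7.17 to 8.47 in E545K tumours and 9.07 in the H1047R tumour, against 6.21 to 7.31 in 6-month controls. The part of either list in the Il1rn and Lcn2 differences was not tested.

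The serum amyloid A genes, apolipoproteins of the acute phase and in mice among its strongest markers, did not pass the test in either direction against controls. Saa1 measured 10.52, 10.87, 10.57, 11.26 and 11.81 in E545K tumours, against 10.74, 10.49, 13.95, 10.63 and 10.14 in 6-month controls and 14.19, 14.19, 9.45 and 9.96 in 3-month controls. Of the controls, 3-month replicates 1 and 2 and 6-month replicate 3 lay above every E545K tumour, and the remaining 6 read 9.45 to 10.74. The difference was -0.18 (95% interval -1.55 to 1.19, adjusted p = 0.877) against 6-month controls and -0.94 (-3.0 to 1.13, adjusted p = 0.458) against 3-month controls. These intervals are wide and do not show equal levels. Leaving out 3-month control replicates 1 and 2 together turned the difference from 3-month controls to 1.30 (adjusted p = 0.0343), so its direction rests on those arrays. The second Saa1 probe, dimmer throughout, differed by -1.11 (adjusted p = 0.143) from 6-month controls and by -2.03 (adjusted p = 0.130) from 3-month controls. The latter became -3.14 (adjusted p = 0.00845) without 3-month control replicate 3, and 0.29 (adjusted p = 0.693) without replicates 1 and 2. Against 3-month E545K livers Saa1 differed by 0.91 (SE 0.38, adjusted p = 0.0753).

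Saa2 followed the same arrays. It was 5.82, 5.76, 5.19, 6.05 and 5.83 in E545K tumours, against 7.25, 5.82, 8.26, 6.38 and 6.01 in 6-month controls and 10.46, 10.63, 5.27 and 4.89 in 3-month controls. Among E545K tumours and controls its highest signals were again those of 3-month control replicates 1 and 2 and 6-month control replicate 3, and the groups overlapped. The difference was -1.01 (SE 0.41, adjusted p = 0.117) against 6-month controls and -2.08 (SE 1.12, adjusted p = 0.161) against 3-month controls. Without replicate 4 of the 3-month controls their difference was -3.06 (adjusted p = 0.0456), and without replicates 1 and 2 it was 0.65 (adjusted p = 0.0888).

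Saa3, the serum amyloid A that macrophages and fat also make in mice, varied most among the tumours themselves. It read 8.23, 9.66, 6.00, 6.66 and 5.62 in the 5 E545K tumours, against 7.82, 7.0, 6.91, 7.13 and 7.05 in 6-month controls and 9.10, 9.22, 6.80 and 6.47 in 3-month controls. Tumours lay on both sides of the controls, with an SD of 1.68 in tumours and 0.36 in 6-month controls. The differences of 0.05 (SE 0.65) against 6-month controls and -0.66 (SE 0.86) against 3-month controls were not called (adjusted p 0.969 and 0.571), and without 3-month control replicates 1 and 2 the second was 0.60 (adjusted p = 0.691). Tumour replicates 1 and 2, with the highest Saa3, also had the highest means of macrophage markers, 9.25 and 8.40, against 7.27 to 7.66 in the remaining tumours. That relation was not tested.

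A further contrast took 5-month E545K tumours minus 3-month preneoplastic E545K livers, less 6-month minus 3-month controls. Tumour stage and age cannot be told apart in it. Its intervals are also unequal, ending at 5 months with E545K and at 6 months in controls. Of the 10 genes, 5 differed upwards and 0 downwards, where 5.47% and 3.79% of all probes did. The contrast was 9.56 for Lcn2 (SE 0.94, adjusted p = 1.77e-06), 3.58 for Il1rn, 2.41 for Orm2, 1.99 for Lbp and 1.93 for Cp. Orm1 had 0.91 (adjusted p = 0.0517), which passed without 6-month control replicate 1, 3 or 5 in turn (0.68 to 1.01, adjusted p 0.0317 to 0.0415). Without 3-month control replicates 1 and 2 the contrast was 7.79 for Lcn2 and 1.79 for Orm2, and both passed. The serum amyloid A genes had 1.67, 1.01 and 1.10 for Saa1, Saa2 and Saa3, or -0.57, -1.73 and -0.16 without those controls, and none was called either way. Between control ages, 0 of the 10 genes were called at 6 against 3 months (0% of all probes either way), with 0 at an unadjusted p under 0.05.

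At 3 months none of the 10 genes passed the test with either mutation. Against 3-month controls, 0 were called in E545K livers (0.00983% of all probes) and 0 in H1047R livers (0% of all probes), with 1 gene and 0 genes at an unadjusted p under 0.05. The single one was Il1rn in E545K livers, at 5.80, 6.05, 5.64, 4.92 and 5.46, against 5.39, 4.88, 4.80 and 5.14 in 3-month controls. E545K livers and controls overlapped, with a difference of 0.52 (SE 0.22, limma adjusted p = 1). Between the mutations at this age, E545K against H1047R, 0 were called (0% of all probes), and 2 had an unadjusted p under 0.05, Il1rn with 0.81 (adjusted p = 0.766) and Orm2 with -0.55 (adjusted p = 0.828). Median differences over the 10 genes were negative against 3-month controls, -0.45 in E545K and -0.19 in H1047R livers, and positive, 0.15 and 0.37, without control replicates 1 and 2. By the brightest probe of each gene the differences ran from -2.02 to 0.52 with E545K and from -1.80 to 0.15 with H1047R, Saa2 being the lowest in both. For Lcn2 the difference of -1.61 between E545K livers and 3-month controls was 0.16 without control replicates 1 and 2, and neither was called (adjusted p = 1 each).

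The 2 late H1047R livers were unlike each other. Pooled against 6-month controls, 0 of the 10 genes were called (0.0246% of all probes), with 1, Il1rn, at an unadjusted p under 0.05. The 6-month liver had Lcn2 at 6.69, Il1rn at 5.63 and Orm2 at 10.22, all within the range of the 6-month controls. The 12-month tumour lay above every 6-month control for 8 of the 10 genes, the exceptions being Saa1 and Lbp, as it did for 21.9% of all probes. It exceeded all 5 E545K tumours for Saa1 (13.86), Saa2 (8.52), Orm1 (14.81) and Orm2 (13.41), lay within their range for Lcn2, Saa3, Hp, Cp and Il1rn, and below it for Lbp. Of all probes, 17.6% lay above the E545K range in this array and 19.2% below it. With the 6-month liver left out, Lcn2 (8.07), Orm2 (3.27), Cp (1.70) and Il1rn (3.90) passed for the lone tumour (adjusted p 0.0028, 0.0182, 0.0430 and 0.0141), on the assumption that it varies like the controls; 3.43% of all probes were called higher in that fit and 1.51% lower. A single tumour gives no spread of its own, and its age matches no control.

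Within groups, Lcn2 and the other genes moved together to different degrees. Values were centred on their group mean over the 23 arrays in groups of 2 or more, and 9 relations with Lcn2 were tested by two-sided permutation within groups. Orm2 had r = 0.70 (rho = 0.64, permutation p = 0.00365 and 0.00554, adjusted p = 0.0328 and 0.0444). Saa1 had r = 0.72 (rho = 0.68, permutation p = 0.0305 and 0.0148, adjusted p = 0.0914 and 0.0444) and Orm1 r = 0.50 (rho = 0.58, permutation p = 0.0167 and 0.0108, adjusted p = 0.0750 and 0.0444). For Saa2, Hp and Saa3, r was 0.70, 0.56 and 0.44 (permutation p 0.0789, 0.104 and 0.142), and for Lbp, Cp and Il1rn it was 0.12, 0.12 and 0.09. Without the 2 arrays farthest from the median of centred Lcn2, 3-month control replicates 1 and 3, r was 0.51 for Orm2, 0.55 for Saa1 and 0.53 for Orm1. With the E545K tumours left out, Orm2 had r = 0.79 (permutation adjusted p = 0.0357), while the rank correlations of Orm2, Saa1 and Orm1 no longer passed (permutation adjusted p 0.0571, 0.0586 and 0.0586). Cp, Lbp and Il1rn, raised in E545K tumours, are thus the genes with the weakest relation to Lcn2 within groups. Saa1 had the highest r over the 23 arrays, but this rank changed with the setting. Without the E545K tumours it was Orm2, and with the authors' values or without background correction it was Saa2 (0.74 each).

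**Figure D4:**
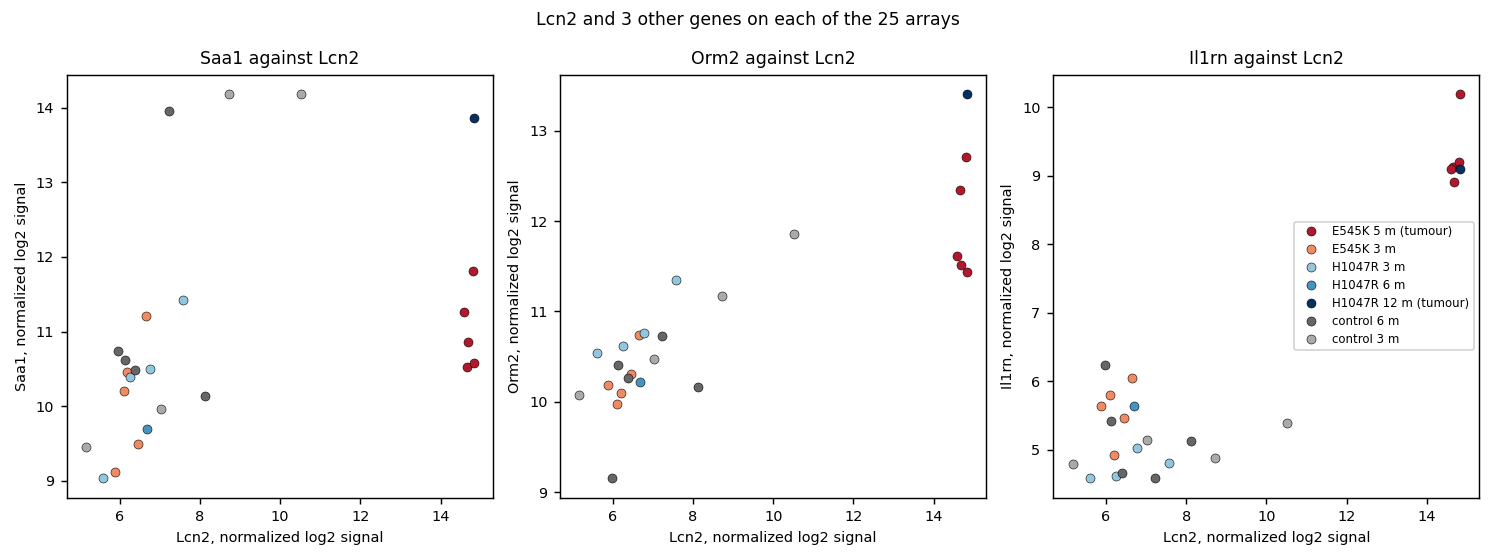
Saa1, Orm2 and Il1rn against Lcn2 on each of the 25 arrays, both axes in normalized log2 signal and colours for groups. The E545K tumours hold Lcn2 at 14.59 to 14.83 with Saa1 at 10.52 to 11.81, while the 3 controls with Saa1 near 14 have Lcn2 at 7.22 to 10.53; Il1rn falls into tumours at 8.91 or higher and all other arrays at 6.24 or lower.

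Some controls also differed in markers of other tissues. Means of 7 skeletal muscle markers were 4.36 to 4.49 in E545K tumours, against 5.22, 7.18, 7.45 and 10.97 in 3-month control replicates 1 to 4. In 6-month controls replicate 4 had 7.08 and the rest 4.43 to 4.65. In 3-month mutant livers they were 4.38 to 4.72 with E545K and 4.43 to 10.12 with H1047R. The array with the most muscle signal, 3-month control replicate 4, was not among those with high Saa1. The part of muscle signal in the comparisons with 3-month controls was not tested. Of the exocrine pancreas markers only Cela2a was tested. It read 6.42, 5.62, 4.90 and 5.64 in 3-month controls and 4.46, 4.58, 4.90, 5.28 and 6.39 in 6-month controls. In E545K tumours it read 4.25 to 4.83. Within each control age, the array with the highest Cela2a was also that with the highest Lcn2. The part of pancreas signal in the Lcn2 values was not tested. All 8 hepatocyte markers were detected on every array, with means of 12.25 to 12.77 in E545K tumours, against 12.39 to 12.82 in 6-month controls and 12.55 to 12.67 in 3-month controls. Neutrophils store lipocalin 2, and of 12 neutrophil markers 6 passed the filter. S100a8 and S100a9 rose against 3-month controls (1.93 and 1.31, adjusted p 0.00179 and 0.0210), where 19.2% of all probes rose. S100a9 lost its call in 6 of 18 fits under other settings, the one without control replicate 1 among them. Against 6-month controls 0 of 6 were called, where 8.42% of all probes rose and 7.57% fell. Among granule genes, Elane was detected on 3 tumours, Ltf on 2, Camp and Mpo on 1 each and Ngp on none, and on no control of either age. Retnlg was detected on 3 tumours and 1 control at 6 months. The mean of the 6 markers was 5.06 to 6.24 in E545K tumours and 4.82 in the H1047R tumour. In 6-month controls it was 4.57 to 5.47, and in 3-month controls 4.62 to 4.92. The part of neutrophils in the Lcn2 difference was not tested.

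Other positive acute-phase genes moved in part with the 10. Of 20 listed, 19 were tested; 3 rose and 1 fell in E545K tumours against 6-month controls, 7 rose and 2 fell against 3-month controls, and 11 rose and 2 fell against 3-month E545K livers. All probes rose and fell in 8.42% and 7.57%, 19.2% and 20.6%, and 18.3% and 20.6% of cases. The median over the list was 0.37, 0.26 and 0.59. Apcs, the pentraxin serum amyloid P, rose by 1.73 (SE 0.43, adjusted p = 0.0199) against 6-month controls, a call lost without tumour replicate 3 or 5, and Serpina3n and Lrg1 by 0.92 and 0.98. Hamp, the iron hormone hepcidin, fell by 3.02 (SE 0.84, adjusted p = 0.0320), and the call was lost without tumour replicate 3, 4 or 5 or control replicate 4 or 5 (adjusted p up to 0.104). The metallothioneins Mt1 and Mt2 rose by 2.82 and 2.11 against 3-month controls (adjusted p 0.00102 and 5.89e-04). Against 6-month controls they differed by 1.92 and 0.87 (adjusted p 0.143 and 0.411), and neither was called. Serpina3n and Lrg1 differed by 0.26 and 0.48 from 3-month controls (adjusted p 0.425 and 0.211), where neither was called. Fgg, the fibrinogen gamma chain, differed by 0.18 and 0.03, and C3, the central complement protein, by -0.03 and -0.20, against 6-month and 3-month controls and were not called. Without 3-month control replicates 1 and 2, 8 rose and 0 fell against the remaining 3-month controls. That fit called 22.1% of all probes in either direction, where the fit with all arrays called 39.8%.

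**Figure D5:**
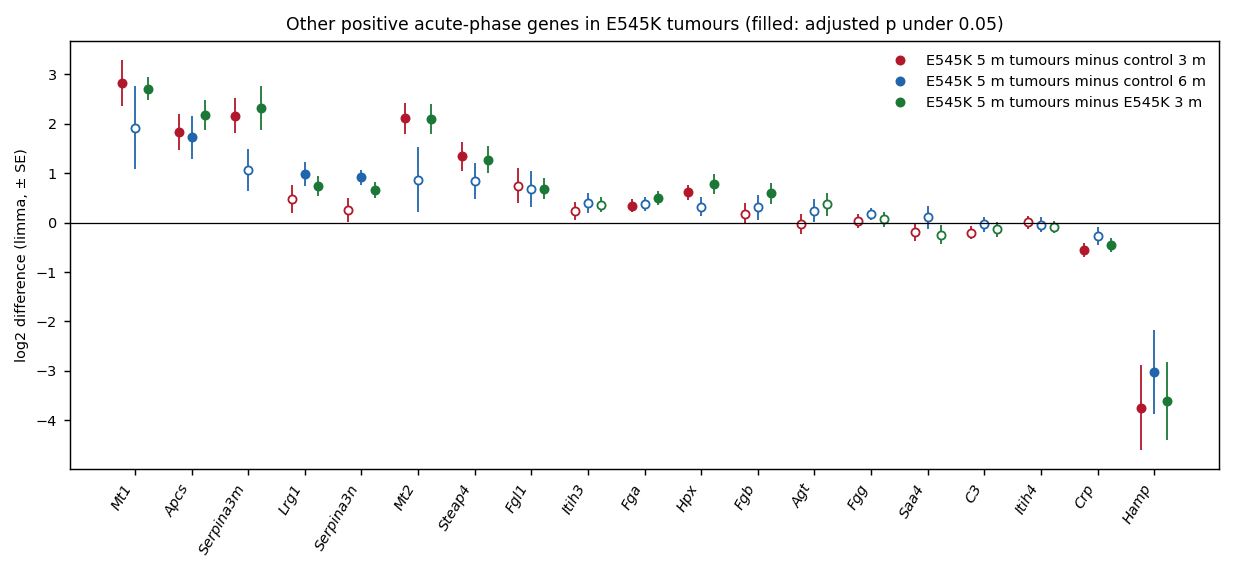
Log2 difference (limma, ± SE) of 19 other positive acute-phase genes in E545K tumours, against 3-month controls, 6-month controls and 3-month E545K livers, ordered by the difference from 6-month controls; filled points passed an adjusted p of 0.05. With all arrays in, Apcs passed upwards and Hamp downwards in all 3 comparisons, and most of the list lies within 1 log2 unit of 0.

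Negative acute-phase genes fall in a systemic response, and none of those listed passed the test downwards in E545K tumours with all arrays in. Of 8 tested, 1 rose and 0 fell against 6-month controls, and 3 rose and 0 fell against 3-month controls, where 8.42% and 7.57%, and 19.2% and 20.6%, of all probes did. Over other settings 0 to 2 were called lower against 3-month controls, Ttr in 4 of 18. In those settings 15% to 46.6% of all probes were called either way. The riser against both was Apoa4, a triglyceride-carrying apolipoprotein, at 3.06 (SE 0.26, adjusted p = 2.06e-05) against 6-month controls. In 3-month E545K livers its difference from 3-month controls was -1.83 (SE 0.20, adjusted p = 0.0199), a call lost in 11 of 18 other settings, among them the omission of any one of the controls or of E545K replicate 1, 3 or 5. In E545K tumours, transthyretin, Ttr, differed by -0.14 and albumin, Alb, by 0.10 against 6-month controls. Against 3-month controls Ttr differed by -0.33 (adjusted p = 0.0732) and Alb by 0.03. With all arrays in, neither gene was called against either age.

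For genes of the upstream pathways the shares of all probes to set beside each count are 8.42% up and 7.57% down against 6-month controls and 19.2% up and 20.6% down against 3-month controls. In the interleukin 6 and STAT3 list, 10 of 13 genes were tested; 1 rose and 1 fell against 6-month controls, and 2 rose and 2 fell against 3-month controls. The receptor of oncostatin M, Osmr, rose by 1.24 (SE 0.26, adjusted p = 0.00776) against 6-month controls. The receptor of leukaemia inhibitory factor, Lifr, had -1.57 (SE 0.49, adjusted p = 0.0498) there, a call lost on leaving out any one tumour or any one control but replicate 1. Against 3-month controls Lifr fell by 2.53 (SE 0.27, adjusted p = 8.29e-05). Stat3 itself differed by 0.00 and its feedback inhibitor Socs3 by 0.99 (adjusted p = 0.0709) against 6-month controls. Against 3-month controls Stat3 differed by -0.62 (adjusted p = 0.0626) and Socs3 by 0.26 (adjusted p = 0.322). Neither gene was called against either age with all arrays in. In the interleukin 1, tumour necrosis factor and NF-kB list, 16 of 19 were tested; 2 rose and 2 fell against 6-month controls, and 5 rose and 1 fell against 3-month controls. Tnfaip3, the ubiquitin-editing inhibitor of NF-kB, rose by 1.68 (SE 0.28, adjusted p = 0.0024) against 6-month controls. It was detected on 5 of 5 tumours and 1 of 5 of these controls. The NF-kB subunit gene Nfkb2, not above background in any 6-month control, was at least 1.17-fold higher (adjusted p = 0.0110). Il1b, whose product Il1rn opposes, had -0.64 (SE 0.19, adjusted p = 0.0411) against 6-month controls. That call was kept in only 4 of 18 other settings and lost on leaving out any one array but replicate 1 of either group. Over the settings, 0 to 2 genes of this list were called lower against 6-month controls, where 5.45% to 24.4% of all probes were called either way. Il6, Osm, Il1a and Tnf, genes of the ligands, did not pass the detection filter. Of the partners of lipocalin 2, Mmp9 and Lrp2 were tested and were called against neither control age, and Slc22a17, its receptor, did not pass the filter.

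Genes outside the 10 whose signal followed Lcn2 most closely over all 25 arrays were Spink1 (Pearson r = 0.96), Cd14 (0.96), Tmem54, Lpar2, Rragd, Nrg1, Igdcc4 and Sult4a1 (0.95 to 0.96). Cd14, the receptor that takes lipopolysaccharide from Lbp, averaged 9.08 in E545K tumours and read 9.88 in the H1047R tumour, against 4.69 in 6-month controls and 5.06 in 3-month controls. Spink1, a secreted trypsin inhibitor, averaged 12.89 in E545K tumours, against 5.50 and 6.46 in the same controls. These arrays fall into tumours and other livers, so the coefficients describe that split, and they share each array's normalization. After centring on group means, the highest were Zfp87 (0.78), Rxra, Cela2a, Ttyh1, Dntt, 1700001L05Rik, Kcnk1 and Dnaic1 (0.68 to 0.71), Cela2a being the exocrine pancreas marker given above. For Saa1 they were Fosb (0.78), Cdc42ep5, Setd7, Noc3l, Tex33, Bad, Cybc1 and Fgl1 (0.65 to 0.68) over all arrays, and Tex33, Zcchc17, Fosb, Noc3l, Cpne8, Ccdc120, Fgl1 and Gm13498 (0.73 to 0.78) after centring, beside Saa2 (0.90) and Hp (0.81) of the 10. Several of these were dim, Fosb and Gm13498 being detected on 5 arrays each.

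The authors' deposited table named for E545K tumours against 3-month controls held differences that matched tumours minus 6-month controls (r = 0.99983 over 45281 probes, median gap 0.00259) and not tumours minus 3-month controls (r = 0.88597, median gap 0.0836). In that table Lcn2 stood at 7.87, Il1rn at 4.13, Orm2 at 1.76 and Saa1 at -0.18. The 3-month controls hold the arrays with the highest Saa1 and Saa2, so the values of these genes depend on which control is meant.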

How the data were processed

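The authors deposited, per the file headers, a table of probe signals with detection p-values for the 25 arrays (intensity, not normalized), a value table of the same arrays, and tables with limma's column names that hold log2 differences and p-values; the sources used here do not name the settings behind them. The value table is linear intensity, not centred, with a median of 104.8 on each array and 1 distribution for all, as quantile normalization by the authors would leave it. The intensity was background-corrected from the detection p-values and quantile-normalized with neqc (limma 3.58.1, R 4.3.3, offset 16), over all 25 arrays together. Probes detected on at least 4 arrays at p under 0.05 were fitted with lmFit and eBayes for each comparison on its own groups, with Benjamini-Hochberg adjustment over all 20349 probes; a probe was called at an adjusted p under 0.05, and all adjusted p-values printed are from limma unless a permutation is named. The arrays detected 14536 to 18391 probes each; their number limits the precision. Gene symbols came from the authors' tables for 33778 probes, with 658 updated by Entrez identifier. The genes, gene lists and marker lists were chosen with earlier results of these data known; the rule named all 10 genes in every comparison, some of them given at 3 months by count and range, and of other lists up to 4 genes of smallest p, some further genes having been named after their values were seen. Correlations used 100000 permutations. The fit was tested on simulated data. Alternatives covered background correction, log2 of the authors' value table, detection filters, 1 probe per gene, all arrays in 1 fit, a trended robust eBayes, the replicate number as a block and leaving out arrays. Same-numbered arrays of different groups did not deviate together in general (43 pairs, r -0.38 to 0.46, median -0.04, 12 over 0.1). Replicate 1 of the 6-month controls did so with replicate 1 of the E545K tumours and of the 3-month E545K livers (r = 0.46 each). So did replicate 3 of the 6-month controls with replicate 3 of the E545K tumours and of the 3-month controls (0.41 each). Replicate 2 of the 3-month E545K livers had 0.39 with that of the 3-month controls and 0.36 with that of the 3-month H1047R livers. Pairs of unlike number were not set beside these. The numbers were not taken to pair arrays.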

Additional observations from a re-analysis of the deposited data

Results flagged for a closer look

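In 75 groups of 4 or 5 arrays, over the 15 tested probes, 8 held an array far from the others by Dixon's test, which chance does for about 1 in 20. In 6-month controls these were the high Saa1 signal of replicate 3 at 13.95 (next array 10.74), the high Saa3 signal of replicate 1 at 7.82 (next 7.13), the low Orm1 signal of replicate 1 at 12.78 (next 13.71) and the low Cp signal of replicate 5 at 11.54 (next 12.14). Among E545K tumours, replicate 3 had a high Il1rn signal of 10.20 (next 9.21) and replicate 1 a low signal of 13.48 on Hp probe 2 (next 14.75). In 3-month E545K livers replicate 4 had a high Lbp signal of 9.07 (next 8.30), and in 3-month H1047R livers replicate 4 had a low signal of 14.32 on Hp probe 1 (next 14.52). The 3-month controls, split into 2 high and 2 low arrays for Saa1 and Saa2, were not picked out by this test, which looks for 1 array apart.

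The step from 3-month preneoplastic E545K livers to 5-month E545K tumours differed from that of controls between 3 and 6 months for several probes. By the limma contrast these were Lcn2 (9.56), Il1rn (3.58), Orm2 (2.41), Lbp (1.99), Cp probe 1 (1.93), Cp probe 2 (2.76), Hp probe 2 (3.04) and Hp probe 3 (2.86). Tumour stage and age are joined in that step. Causes of these differences were not tested.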

How the results depend on the processing

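Of 2451 differences of single probes recomputed under other settings, 2396 kept their side of the threshold, 32 lost a call and 22 gained one, and Saa1 against 3-month controls turned to 1.30 and passed without control replicates 1 and 2. The 2396 include every value from comparisons among 3-month groups and between control ages. There 0 to 3 of all probes were called in any setting, so a change of side was hardly possible. In E545K tumours against 3-month controls, Orm2 lost its call in 11 of 18 settings and Cp probe 3 in 12 of 16, while Lcn2, Lbp and Il1rn kept theirs in 18. Of the 2396, 96 were called in neither fit and changed sign, 32 of them without those controls, Saa2 (0.65) and Saa3 (0.60) in E545K tumours included. Counts of the 10 genes called in E545K tumours were 5 to 7 against 3-month controls, 5 to 6 against 6-month controls, 6 to 7 against 3-month E545K livers and 5 to 6 in the contrast of differences, including every fit that left out 1 array. In the same order, 15% to 46.6%, 5.45% to 24.4%, 14% to 46.2% and 3.29% to 12.6% of all probes were called either way. For the late H1047R livers, 1 gene was called with all 25 arrays in 1 fit, and 0 to 4 on leaving out 1 array, the 4 without the 6-month liver. With the replicate number as a block, 5, 5, 6 and 6 genes were called in these E545K comparisons, with Orm1 losing its call against 3-month controls (0.47, adjusted p = 0.0814). Of all probes, 30.5%, 20.7%, 37.7% and 9.21% were called either way with that block. The relation of Orm1 with Lcn2 passed without background correction (r = 0.48, permutation adjusted p = 0.0451). On leaving out 1 array, called contrasts lost their call for Hp probe 3 (2.55 to 2.78, without 3-month E545K replicate 1 or 3 or 3-month control replicate 1 or 2, and 2.27 without both controls, where Hp probe 2 at 2.45 lost it too), and Saa1 gained one against 3-month E545K livers (1.19, adjusted p = 0.0211, without 3-month E545K replicate 2). Orm2 against 3-month controls also lost its call without background correction, with the authors' values, with no detection filter and with the trended robust fit (0.98 to 1.03, adjusted p 0.05 to 0.142). Counts for the other lists were less stable: in E545K tumours against 6-month controls, 2 to 6 other positive acute-phase genes and 0 to 4 interleukin 1 and NF-kB genes rose. In that comparison 5.45% to 24.4% of all probes were called either way. Signals near the top of the scale limit what can be said of Hp probe 1, Orm1 and the size of the Lcn2 difference, and signals near background that of Il1rn in controls.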
